A study of Mus musculus with 15 samples.

Results

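The 8 genes described here are known as products of club cells, the secretory cells of the small airways: Scgb1a1, Scgb3a1, Scgb3a2, Cyp2f2, Bpifa1, Aldh1a1, Cbr2 and Gsto1. They were taken by symbol from the deposited tables, in which each of the 8 occurs once among 57010 genes. The tables hold lung RNA of C57BL/J mice in 15 libraries. The silica_DMSO group had 4 libraries (numbered 2, 4, 5 and 6 in the labels) from mice given silica and then a DMSO solution, and the silica group had 3 libraries (1, 2 and 7) from mice given silica. The DMSO group had 4 libraries (1, 4, 6 and 7) from mice given the DMSO solution, and the control group had 4 libraries (1, 2, 4 and 7) from mice given physiological saline. Silica was dropped into the nose as a suspension, DMSO came on the second day, and lungs were taken after 30 days. Dose, age and sex are not given, and no source says that each library is 1 animal, so p-values measure the spread between these libraries, which may be technical. The study title asks what DMSO does to the effects of coal mine dust. DMSO is a polar solvent, and silica is the mineral behind silicosis.

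Club cells are the dome-shaped secretory cells that line the bronchioles. They release secretoglobins and defence proteins into the airway fluid, carry much of the lung's cytochrome P450 activity, and can renew themselves and give rise to ciliated cells. In mice, Scgb1a1 is the classical marker of the cell, and loss of Cyp2f2-bearing cells after naphthalene is a standard injury model. In RNA of whole lung, fewer cells of a type and less RNA per cell cannot be told apart.

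Promoters of 6 of the 8 members were matched in the RefSeq table (build GRCm38.p6, from 250 bases before to 50 bases after the annotated start). The 3 windows printed below belong to the secreted products Scgb3a1 and Bpifa1, whose levels had the widest ranges over the lung libraries, and to the enzyme Cyp2f2, whose levels ran apart from those of Scgb3a1. Capitals mark matches to 3 words of airway epithelial transcription factors and to a TATA word. The FOXA word was TGTTTAC or TGTTTGC or TATTTAC or TATTTGC on both strands and occurs in 13.6% of the 32544 promoters of the same length. The NKX2-1 word was CTCAAG on both strands, in 15.7% of promoters, the C/EBP word was TTGCNNAA on both strands, in 10.8%, and the TATA word was TATAAA on the coding strand, in 8.28%. No 2 of the marked matches overlap. The windows are chr11:49663345-49663644 (plus strand) for Scgb3a1, chr2:154142630-154142929 (plus strand) for Bpifa1 and chr7:27119705-27120004 (plus strand) for Cyp2f2.
Scgb3a1: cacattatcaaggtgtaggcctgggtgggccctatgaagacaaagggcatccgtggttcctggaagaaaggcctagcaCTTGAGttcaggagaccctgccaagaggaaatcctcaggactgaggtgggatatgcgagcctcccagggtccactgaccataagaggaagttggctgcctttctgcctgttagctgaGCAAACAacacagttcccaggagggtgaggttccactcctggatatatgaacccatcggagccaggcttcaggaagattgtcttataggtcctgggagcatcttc
Bpifa1: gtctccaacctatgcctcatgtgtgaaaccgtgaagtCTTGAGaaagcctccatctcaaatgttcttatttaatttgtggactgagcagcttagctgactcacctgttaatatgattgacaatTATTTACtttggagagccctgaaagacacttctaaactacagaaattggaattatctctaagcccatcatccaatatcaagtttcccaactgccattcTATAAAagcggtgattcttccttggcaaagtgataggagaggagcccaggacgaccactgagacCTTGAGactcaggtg
Cyp2f2: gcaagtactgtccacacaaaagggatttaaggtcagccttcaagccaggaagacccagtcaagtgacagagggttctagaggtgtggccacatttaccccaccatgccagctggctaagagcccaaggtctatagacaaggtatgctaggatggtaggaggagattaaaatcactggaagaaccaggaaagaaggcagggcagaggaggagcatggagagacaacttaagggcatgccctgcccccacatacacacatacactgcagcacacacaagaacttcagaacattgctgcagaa

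The Scgb3a1 window holds an NKX2-1 match from base -172 to -167 and a FOXA match from base -55 to -49, counted from the start. The Bpifa1 window holds a FOXA match from base -127 to -121, NKX2-1 matches from -213 to -208 and from 36 to 41, and a TATA match from -29 to -24. Of the windows not printed, the 2 of Aldh1a1 hold a C/EBP match from -13 to -6 in the one and a FOXA match from -213 to -207 in the other. These 4 words are not in the windows of Cyp2f2, Cbr2 and Gsto1. A match describes letters only.

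In 3 libraries, silica_DMSO 4, silica_DMSO 6 and DMSO 7, markers of developing thymocytes stood high, and these are called the libraries with thymus RNA. Rag1, a recombinase of developing lymphocytes, stood at 2541 to 3876 CPM (counts per 1000000) in those 3 and at no more than 0.224 CPM in the other 12, and Dntt, a polymerase of the same cells, at 1312 to 2068 CPM against at most 0.433 CPM. All 9 genes of the thymocyte list, not all of them particular to thymocytes, were above 0 in the 3 libraries. Their summed level was 2583 to 3245 TPM (transcripts per 1000000, scaled for length), against 5.32 to 29.2 TPM in the other 12. Alveolar type 2 cell markers, some of them shared with other cell types, summed to 3038 to 17306 TPM in the 3 libraries and to 25140 to 64255 TPM in the 12. Sftpc, 1 of these markers, was at 217 to 11520 TPM in the 3 and at 14748 to 46577 TPM in the 12. Fold changes are therefore given with all 15 libraries and with the 12 without thymus RNA, called the lung libraries, in which the silica_DMSO group keeps 2 libraries and the DMSO group 3. Libraries also differed in the share of counts that fell in genes over 3000 bases. That share was 11.5% to 24.2% in 5 of the 12 libraries (silica_DMSO 5, silica 7, DMSO 1, DMSO 4 and control 1) and 34.03% to 44.9% in the other 7, and every group has libraries on both sides. The part of thymus RNA and of this split in the results was not tested beyond the values given with each. Totals ran from 17434649 to 20829960 counts per library.

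Scgb1a1, the main secreted protein of club cells, was the most abundant transcript of the lung by TPM in 14 of 15 libraries. It made up 22.4%, 2.25%, 29.2% and 0.258% of TPM in silica_DMSO libraries 2, 4, 5 and 6. In silica libraries 1, 2 and 7 it made up 5.72%, 26.7% and 36.9%. It took 28.9%, 30.3%, 24.5% and 5.60% in DMSO libraries 1, 4, 6 and 7, and 34.01%, 21.9%, 20.8% and 24.6% in control libraries 1, 2, 4 and 7. The 3 libraries with thymus RNA and silica 1 were the low ones, and without them the groups overlapped, between 20.8% and 36.9%. In silica_DMSO 6 the gene ranked 68 by TPM. Because TPM sum to a fixed total, a library with more Scgb1a1 has less room for every other gene on that scale.

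By counts, which are not divided by length, the order of libraries was different. Scgb1a1 held 4.16%, 0.435%, 14.2% and 0.0456% of counts in silica_DMSO libraries 2, 4, 5 and 6, and 0.927%, 5.31% and 12.3% in silica libraries 1, 2 and 7. It held 8.83%, 12.6%, 5.19% and 0.891% in DMSO libraries 1, 4, 6 and 7, against 12.5%, 4.23%, 3.34% and 5.10% in control libraries 1, 2, 4 and 7. The 5 libraries with few counts in long genes held the 5 highest shares, at 8.83% to 14.2%, and the other 7 lung libraries held 0.927% to 5.31%. The transcript is 476 bases long in the authors' table, the shortest of the 8.

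Scgb3a2, a related secretoglobin of bronchioles, stood at 2472, 601, 7241 and 109 TPM in silica_DMSO libraries 2, 4, 5 and 6 and at 968, 3150 and 5288 TPM in silica libraries 1, 2 and 7. It stood at 6934, 10504, 3293 and 771 TPM in DMSO libraries 1, 4, 6 and 7, against 4901, 2506, 2543 and 2718 TPM in control libraries 1, 2, 4 and 7. The 5 libraries with few counts in long genes were the 5 highest, and all groups overlapped.

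Scgb3a1, a secretoglobin of larger airways, had the widest range of the 8 over the 12 lung libraries, 49.6-fold. Its level was 595, 59.7, 1989 and 20.1 TPM in silica_DMSO libraries 2, 4, 5 and 6, and 1075, 1116 and 1057 TPM in silica libraries 1, 2 and 7. It was 4437, 10948, 626 and 207 TPM in DMSO libraries 1, 4, 6 and 7, against 997, 680, 387 and 221 TPM in control libraries 1, 2, 4 and 7. DMSO 1 and DMSO 4 stood above all other libraries, the 3 silica libraries lay within 1.06-fold of one another, and silica 1 was not low for this gene as it was for Scgb1a1 and Scgb3a2.

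Bpifa1, a surface-fluid defence protein made mostly in the nose and large airways, was the least abundant member by mean TPM in every group. It had 104, 15.3, 67.0 and 38.4 TPM in silica_DMSO libraries 2, 4, 5 and 6 and 8.77, 199 and 245 TPM in silica libraries 1, 2 and 7. It had 60.1, 51.9, 127 and 29.0 TPM in DMSO libraries 1, 4, 6 and 7, against 49.97, 106, 85.4 and 20.2 TPM in control libraries 1, 2, 4 and 7. Silica 1 was the lowest of all 15 and silica 7 the highest, so the silica group alone spanned 27.9-fold.

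Cyp2f2, the cytochrome P450 that activates naphthalene in mouse lung, had 2062, 104, 301 and 7.49 TPM in silica_DMSO libraries 2, 4, 5 and 6 and 457, 2031 and 2478 TPM in silica libraries 1, 2 and 7. It had 1346, 809, 2076 and 475 TPM in DMSO libraries 1, 4, 6 and 7, against 472, 1886, 2001 and 1997 TPM in control libraries 1, 2, 4 and 7. Of the 12 lung libraries the lowest were silica_DMSO 5, silica 1 and control 1, each from another group.

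Aldh1a1, which makes retinoic acid from retinal, followed Cyp2f2 closely. Its level was 1155, 56.3, 244 and 3.87 TPM in silica_DMSO libraries 2, 4, 5 and 6, and 408, 1077 and 1095 TPM in silica libraries 1, 2 and 7. It was 802, 708, 1077 and 267 TPM in DMSO libraries 1, 4, 6 and 7, against 421, 1042, 964 and 1113 TPM in control libraries 1, 2, 4 and 7. The same 3 lung libraries were lowest. Of its 50-base stretches, 7.53% also occur in Aldh1a7, so a part of its counts could have been shared with that gene.

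Cbr2, a carbonyl reductase that is abundant in mouse lung, came next after Scgb1a1 in mean TPM in every group. It had 5904, 785, 6690 and 443 TPM in silica_DMSO libraries 2, 4, 5 and 6 and 1970, 6973 and 10342 TPM in silica libraries 1, 2 and 7. It had 7503, 8683, 6919 and 1751 TPM in DMSO libraries 1, 4, 6 and 7, against 8175, 6169, 6788 and 7573 TPM in control libraries 1, 2, 4 and 7. Silica 1 was the lowest lung library, and the other 11 lay between 5904 and 10342 TPM. Of its 50-base stretches, 15.1% also occur in Gm11771.

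Gsto1, a glutathione transferase of the omega class, had 139, 47.4, 147 and 41.2 TPM in silica_DMSO libraries 2, 4, 5 and 6 and 117, 176 and 227 TPM in silica libraries 1, 2 and 7. It had 221, 431, 152 and 54.1 TPM in DMSO libraries 1, 4, 6 and 7, against 97.1, 137, 125 and 130 TPM in control libraries 1, 2, 4 and 7. DMSO 4 was the highest library, and control had the narrowest spread of the groups with 3 or more lung libraries, at 122 ± 17.5 TPM (SD, n = 4).

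**Figure D1:**
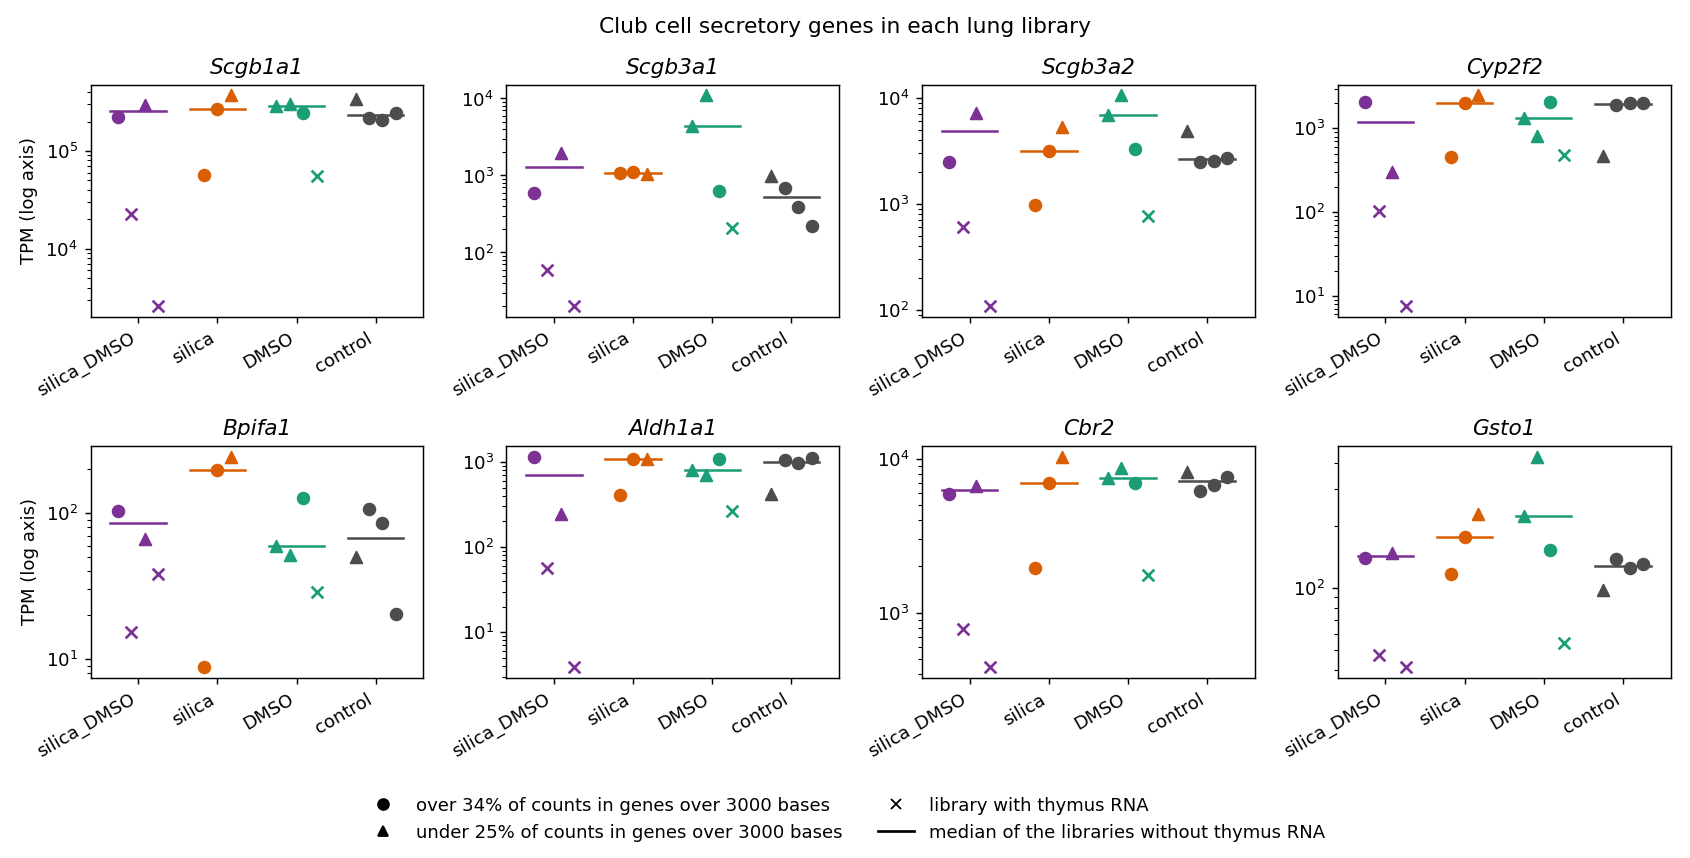
TPM of the 8 genes (log axis) in each of the 15 libraries, by group, with a line at the median of the libraries without thymus RNA in each group; crosses are the 3 libraries with thymus RNA and triangles the 5 lung libraries with few counts in genes over 3000 bases. The crosses lie low in most panels, silica 1 lies low for Scgb1a1, Scgb3a2, Bpifa1 and Cbr2, and the triangles lie high for Scgb1a1 and Scgb3a2.

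The order of the members within groups was steady at the top and loose below it. Over the 12 lung libraries Scgb1a1 averaged 258162 TPM in silica_DMSO (n = 2), 231252 ± 159129 TPM in silica (SD, n = 3), 278793 ± 30364 TPM in DMSO (SD, n = 3) and 253460 ± 59869 TPM in control (SD, n = 4). Cbr2 followed at 6297, 6428 ± 4212, 7702 ± 898 and 7176 ± 880 TPM in silica_DMSO, silica, DMSO and control. The ranges of Scgb1a1 and Cbr2 did not overlap within any group of lung libraries. In control Cbr2, Scgb3a2 and Cyp2f2 were in turn clear of one another, while Cyp2f2 overlapped Aldh1a1 and Aldh1a1 overlapped Scgb3a1. In silica_DMSO, silica and DMSO the ranges of Cbr2 and Scgb3a2 overlapped, and so did those of Scgb3a1 and Cyp2f2. Bpifa1 and Gsto1 were the 2 lowest members by mean TPM in every group.

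Together the 8 genes made up 5.27%, 0.540%, 16.2% and 0.0919% of counts in silica_DMSO libraries 2, 4, 5 and 6, and 1.25%, 6.69% and 14.8% in silica libraries 1, 2 and 7. They made up 10.9%, 15.8%, 6.52% and 1.15% in DMSO libraries 1, 4, 6 and 7, against 13.95%, 5.38%, 4.32% and 6.44% in control libraries 1, 2, 4 and 7. The share of counts in genes over 3000 bases was 40.04%, 38.6%, 11.5% and 34.4% in silica_DMSO, 42.8%, 34.03% and 22.5% in silica, 23.7%, 12.4%, 35.8% and 44.1% in DMSO and 24.2%, 39.3%, 44.9% and 35.5% in control, in the same order of libraries. The 5 lung libraries lowest in long genes held 10.9% to 16.2% of counts in the 8 members, and the other 7 held 1.25% to 6.69%. Of TPM, which are divided by length, the same 5 held 30.9% to 39.0% and the same 7 held 6.22% to 28.2%, so the sets stayed apart but by less.

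The 2 shares were set against each other within the libraries above a gap. None of the 8 members is long enough to count in the long-gene share. A fall of their share as the long-gene share rises is therefore partly built in. Other short genes were not set beside them, so the r and p given cannot tell the members from short genes in general. The widest gap in the long-gene share, between 12.4% and 22.5%, leaves 10 lung libraries above it, and over those 10 the summed share of the members fell with the long-gene share (Pearson r = -0.945, permutation p = 0.00018, adjusted p = 0.000600 over the 8 members and their sum; Spearman rho = -0.964). Without the libraries farthest from the median, silica 7 and DMSO 1, r was -0.932. By member, r was -0.938 for Scgb1a1, -0.946 for Scgb3a2, -0.928 for Cbr2 and -0.645 for Scgb3a1, with adjusted permutation p of 0.000600, 0.000765, 0.000600 and 0.0144 and rho of -0.939, -0.915, -0.964 and -0.709. Without the same 2 libraries these r were -0.932, -0.926, -0.881 and -0.760. That omission leaves control 1, at 24.2%, as the only library of the set with few counts in long genes. For Gsto1 r was -0.771 (rho -0.758, adjusted permutation p = 0.0250 for r) and -0.404 without the same 2 libraries. For Cyp2f2 r was -0.380 (permutation p = 0.296), for Aldh1a1 -0.487 (permutation p = 0.148) and for Bpifa1 -0.519 (permutation p = 0.145). Their rho were -0.588, -0.697 and -0.491, and of these rho that of Aldh1a1 passed the adjustment (adjusted permutation p = 0.0386).

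A second gap of nearly the same width, from 24.2% to 34.03%, sets silica 7, DMSO 1 and control 1 apart from the other 7 of those 10. Over the 7 libraries alone, chosen after the data were seen, r of the summed share was -0.782 (exact permutation p = 0.0349, adjusted p = 0.0786) and rho was -0.929 (adjusted exact permutation p = 0.0202), and no member's r passed the adjustment, the smallest adjusted p being 0.0536 for Gsto1. By rho 6 of the 8 members passed it, all but Scgb3a1 and Bpifa1. Over these 7 libraries r was -0.898 for Gsto1 (rho -0.857) and -0.280 for Scgb3a1 (rho -0.25). Both shares are parts of one total. With the long-gene share taken over all genes other than the 8 members, r over the 10 libraries was -0.921. That change takes the members out of the total but leaves the difference between libraries in short and long genes in place. The groups cannot be compared within the set of 2 libraries below the widest gap.

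**Figure D2:**
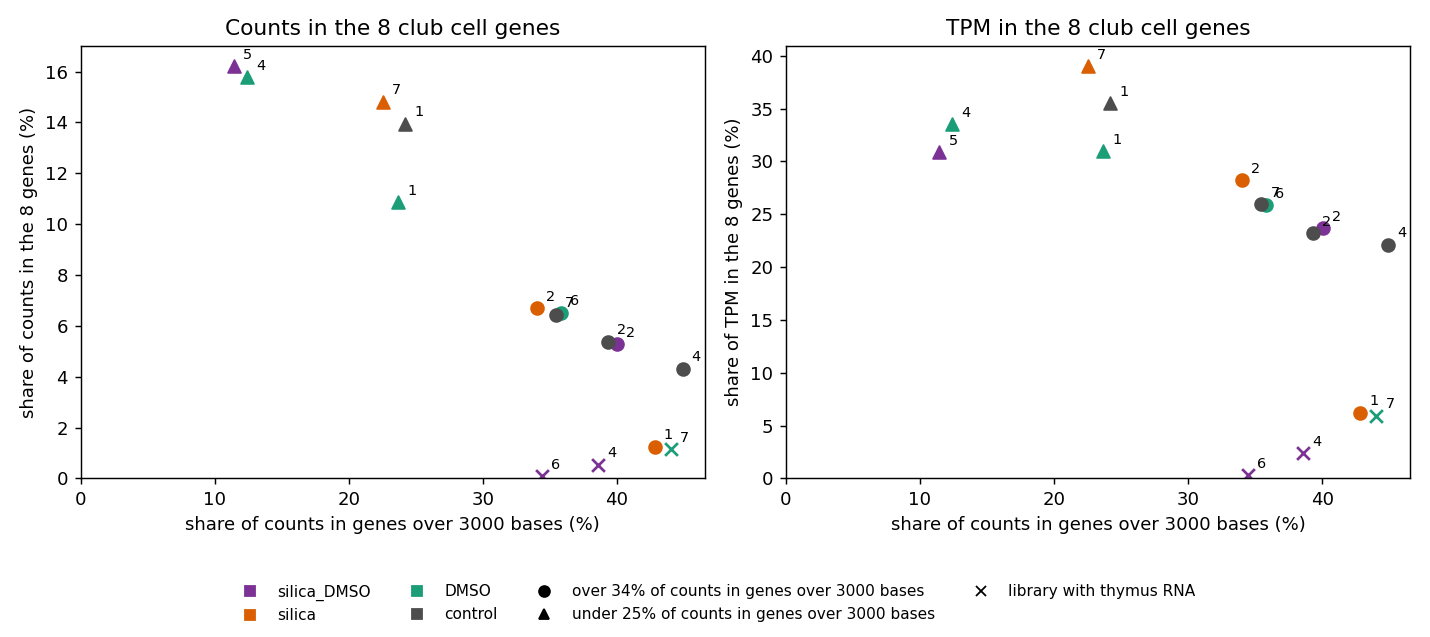
Share of counts (left) and of TPM (right) in the 8 genes against the share of counts in genes over 3000 bases, both in percent, with 1 point per library, coloured by group and numbered as in the labels. Libraries with few counts in long genes hold the largest share of counts in the 8 genes, from 10.9% to 16.2%, while crosses (libraries with thymus RNA) and silica 1 lie at or below 1.25% of counts at a high long-gene share.

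The 8 genes did not vary as one. Over the 12 lung libraries, with log2(TPM + 1) compared between genes, Pearson r was 0.977 between Scgb1a1 and Cbr2 and 0.812 between Scgb1a1 and Scgb3a2. Cyp2f2 and Aldh1a1 ran together at r = 0.980. Across these sets r was low, at 0.247 for Cyp2f2 with Scgb1a1, and -0.430 for Cyp2f2 with Scgb3a1. Bpifa1 ran in part with both, at r = 0.664 with Scgb1a1 and 0.552 with Cyp2f2. In log2 TPM silica 1 stood at -2.05 from the gene mean for Scgb1a1, -1.74 for Cbr2 and -1.42 for Cyp2f2. These r may hang on that library, and r without it was not computed. Scgb3a1 ran with Gsto1 (r = 0.766) and with Scgb3a2 (r = 0.680). These values describe 12 points that share libraries, depth and the split in long-gene share, and no p is given. Cyp2f2 and Aldh1a1 are the longest members, at 1866 and 2053 bases, and the others are 476 to 1182 bases long. The part of length in these r was not tested.

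Ratios between members show the same sets. Per 1000 TPM of Scgb1a1 the 7 lung libraries with many counts in long genes held 7.60 to 9.60 TPM of Cyp2f2, and the 5 others held 1.03 to 6.71. Per 1000 TPM of Scgb1a1 they held 26.1 to 34.4 TPM of Cbr2 in the 7 libraries and 22.9 to 28.7 in the 5. The ratio of Aldh1a1 to Cyp2f2 was 482 to 892 TPM per 1000 over the 7 libraries, and 442 to 891 over the 5. Over all 12 the ratio to Scgb1a1 ran from 22.9 to 34.4 for Cbr2 and from 1.03 to 9.60 for Cyp2f2.

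**Figure D3:**
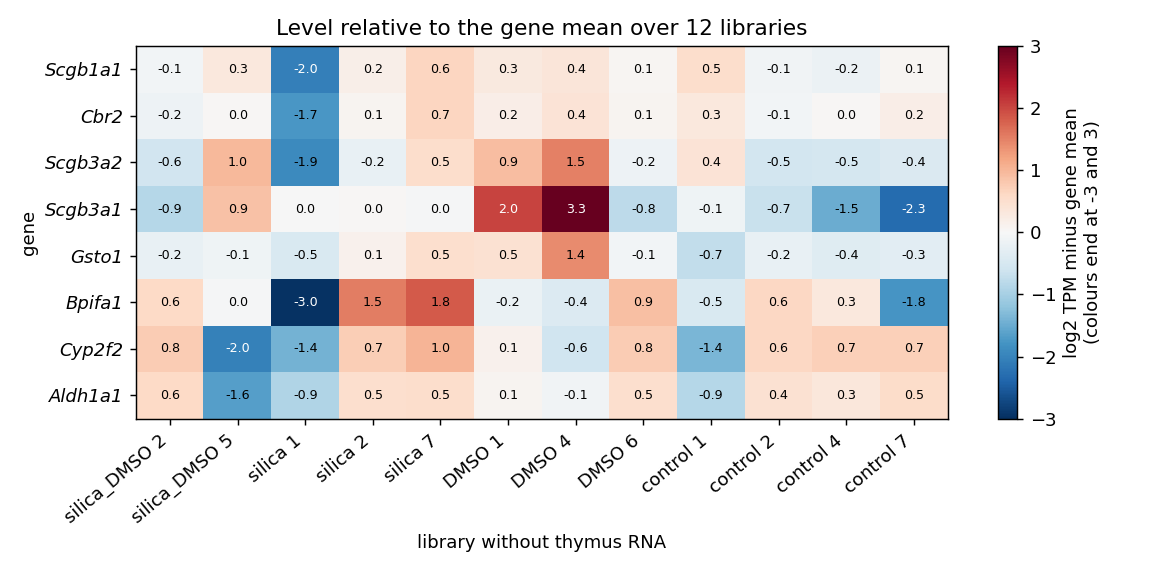
Log2 TPM of each gene minus its own mean over the 12 libraries without thymus RNA (colour scale from -3 to 3, values printed), genes down and libraries across by group. Silica 1 is low for 5 of the 8 genes by more than 1 log2 unit but at -0.01 for Scgb3a1, DMSO 1 and DMSO 4 are high for Scgb3a1 at 2.03 and 3.34, and Cyp2f2 and Aldh1a1 are low together in silica_DMSO 5, silica 1 and control 1.

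Among the 8979 other genes compared, the 3 most like Scgb1a1 were Cldn10, a tight-junction claudin (r = 0.977), Gsta2, a glutathione transferase (r = 0.971), and Rbp4, a retinol carrier (r = 0.935). Cldn10 had 18.4 and 24.1 TPM in silica_DMSO 2 and 5, 5.96, 20.3 and 30.5 TPM in silica 1, 2 and 7, 19.3, 20.1 and 18.2 TPM in DMSO 1, 4 and 6, and 26.1, 17.7, 17.2 and 17.4 TPM in control 1, 2, 4 and 7. The genes most like Cyp2f2 were Cckar, a cholecystokinin receptor (r = 0.956), Gfra1, a coreceptor of the RET kinase (r = 0.949), and Ttc29, an axonemal protein (r = 0.941). Those most like Aldh1a1 were Ttc29 (r = 0.968), Plekhb1 (r = 0.961) and Cckar (r = 0.957). Cckar had 48.0 and 6.43 TPM in silica_DMSO 2 and 5, 16.2, 43.5 and 44.2 TPM in silica 1, 2 and 7, 38.4, 22.4 and 44.8 TPM in DMSO 1, 4 and 6, and 7.04, 47.4, 41.1 and 44.1 TPM in control 1, 2, 4 and 7, and so was low in the same 3 libraries as Cyp2f2. The measure is Pearson r of log2(TPM + 1) over 12 libraries.

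Silica against control asks what silica did to these genes 30 days on. No member was called, and Bpifa1 had the largest fitted difference of the 8 with all libraries. With all 15 libraries edgeR's quasi-likelihood test called 0 of 8 members and 0 of 17879 genes (0%), with 522 genes at an unadjusted p under 0.05. Without the libraries with thymus RNA it called 0 of 8 members and 2 of 17630 genes (0.0113%), with 1055 at an unadjusted p under 0.05. Bpifa1 averaged 175 ± 171 normalised CPM in silica and 57.6 ± 30.1 in control (SD, n = 3 and 4), a log2 fold change of 1.61 ± 1.13 (SE, edgeR adjusted p = 1.00). With 12 libraries the change was 1.60 ± 0.94 (edgeR adjusted p = 0.978). It was higher in silica 2 and 7 than in all 4 controls but lowest in silica 1.

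For the secretoglobins and enzymes the fitted differences were smaller than their standard errors. With all 15 libraries Scgb1a1 averaged 63160 ± 64155 normalised CPM in silica and 62445 ± 51438 in control, a log2 fold change of 0.02 ± 1.60 (SE). Scgb3a1 was 0.67 ± 1.78, Gsto1 0.77 ± 1.09, Cyp2f2 0.53 ± 1.25, Aldh1a1 0.28 ± 1.25, Cbr2 0.11 ± 1.31 and Scgb3a2 0.09 ± 1.60 on the same scale, each with an edgeR adjusted p of 1.00. The median of the 8 was 0.41, against 0.00 over all genes tested. It was -0.30 without silica 7 (3 of 8 positive), 0.83 without silica 1, 0.82 without control 1, 0.05 with the replicate block and -0.07 on the log2(TPM + 1) scale. By TPM in the lung libraries, Scgb3a1 was the 1 of 8 members whose groups did not overlap, at 1083 ± 30.5 TPM in silica and 571 ± 341 TPM in control (SD, n = 3 and 4). Of all 15038 genes compared 5.69% did not overlap either. DESeq2 with 15 libraries called 45 genes and no member.

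DMSO against control asks what DMSO did without silica. No member was called. Scgb3a1, Gsto1 and Scgb3a2 had the largest fitted differences, and of the 3 lung libraries of the DMSO group DMSO 1 and DMSO 4 held the high values. With all 15 libraries 0 of 8 members and 0 of 17879 genes (0%) were called, with 1275 genes at an unadjusted p under 0.05. With 12 libraries 0 of 8 members and 0 of 17630 genes (0%) were called, with 1519 at an unadjusted p under 0.05. Scgb3a1 averaged 2510 ± 3901 normalised CPM in DMSO and 170 ± 187 in control (SD, n = 4 each), a log2 fold change of 3.88 ± 1.87 (SE, edgeR adjusted p = 0.649). With 12 libraries it averaged 3158 ± 4079 normalised CPM in DMSO and 164 ± 181 in control, a log2 fold change of 4.26 ± 1.34 (SE, edgeR adjusted p = 0.513). Without DMSO 4 the fold change with the other 14 libraries was 1.80. DMSO 6 lay within the control range.

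Gsto1 was 2.01 ± 1.05 with 15 libraries (SE, edgeR adjusted p = 0.649) and 2.36 ± 0.78 with 12 (adjusted p = 0.513), and 0.58 without DMSO 4. Scgb3a2 was 1.66 ± 1.52 (SE, edgeR adjusted p = 0.714) and 2.03 ± 1.14 (adjusted p = 0.513), and 0.33 without DMSO 4. Scgb1a1, Cbr2, Bpifa1, Cyp2f2 and Aldh1a1 lay between 0.32 and 0.67 with 15 libraries and between 0.65 and 1.01 with 12. The median of the 8 with 12 libraries was 1.01, against -0.04 over all genes tested, and 0.63 with an offset for gene length. With 15 libraries it was 0.67, and 0.18 without DMSO 4 (5 of 8 positive), 1.15 without control 1 and -0.15 on the log2(TPM + 1) scale. DMSO 1 and DMSO 4 are among the libraries with few counts in long genes. With an offset for gene length in each library, the 12-library values were 2.63 ± 0.88 for Scgb3a1, 1.65 ± 0.51 for Gsto1 and -0.28 ± 0.78 for Scgb1a1 (SE), with edgeR adjusted p of 0.479, 0.479 and 0.890. By TPM in the lung libraries Gsto1 was the 1 of 8 members whose groups did not overlap, at 268 ± 145 TPM in DMSO and 122 ± 17.5 TPM in control (SD, n = 3 and 4), where 5.29% of all genes did not overlap. DESeq2 called 63 genes and no member, with a smallest adjusted p among members of 0.232.

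The summed goblet cell list was high in the same DMSO libraries, mostly through 2 of its 8 genes, Gp2 and Itln1. The 8 goblet genes summed to 9.27 to 223 TPM in the 3 lung libraries of the DMSO group, with DMSO 1 at 78.4 TPM and DMSO 4 at 223 TPM, against 7.23 to 12.6 TPM in control, where 1 or 2 of the 8 genes were at 0. The 3 silica libraries summed to 17.1 to 78.0 TPM, with silica 1 the highest, and the 2 silica_DMSO lung libraries to 13.5 and 22.0 TPM. All of these lay above the control range, while the DMSO range overlapped it. The 3 libraries with thymus RNA summed to 66.1 to 274 TPM. Gp2, a glycoprotein of M cells, averaged 63.2 ± 73.1 TPM in DMSO and 1.57 ± 1.45 TPM in control (SD, n = 3 and 4), a log2 fold change of 6.79 ± 1.59 (SE, edgeR adjusted p = 0.513). Itln1, a goblet cell lectin, averaged 29.2 ± 32.2 TPM in DMSO and 0.418 ± 0.487 TPM in control, a log2 fold change of 7.44 ± 1.95 (SE, edgeR adjusted p = 0.513). The highest values of Gp2 and Itln1 in the DMSO group were 144 and 63.7 TPM. With 12 libraries all 8 goblet genes had a positive fold change in DMSO against control (median 3.80) and also in silica against control (median 2.60). None was called in either. The mucin Muc5ac, named like Clca1 after its values were seen, was at 0.22 to 0.32 TPM in DMSO and 0.08 to 0.27 TPM in control, and Clca1, a secreted goblet cell product, at 0.82 to 9.35 TPM in DMSO and 0.08 to 0.26 TPM in control. The part of these cells in Scgb3a1 was not tested.

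Silica_DMSO against silica asks whether DMSO after silica changed these genes. No member was called, and for 6 of the 8, all but Cyp2f2 and Aldh1a1, leaving out 1 library could turn the sign. With all 15 libraries 0 of 8 members and 0 of 17879 genes (0%) were called, with 1056 genes at an unadjusted p under 0.05, and with 12 libraries 0 of 8 and 0 of 17630 (0%), with 342. Cyp2f2 averaged 1342 ± 1494 normalised CPM in silica_DMSO and 3560 ± 3057 in silica (SD, n = 4 and 3), a log2 fold change of -1.41 ± 1.25 (SE, edgeR adjusted p = 0.721). With 12 libraries it averaged 2482 normalised CPM in silica_DMSO (n = 2) and 3420 ± 2958 in silica, a log2 fold change of -0.46 ± 0.81 (SE, edgeR adjusted p = 0.997). Aldh1a1 was -0.97 ± 1.25 with 15 libraries and -0.02 ± 0.68 with 12.

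The secretoglobins lay on the other side of 0. Scgb1a1 averaged 84351 ± 142945 normalised CPM in silica_DMSO and 63160 ± 64155 in silica, a log2 fold change of 0.42 ± 1.61 with 15 libraries and 1.38 ± 1.27 with 12 (SE, edgeR adjusted p = 0.928 and 0.997). Scgb3a1 was 1.13 ± 1.85 and 2.11 ± 1.47, Scgb3a2 1.16 ± 1.65 and 2.12 ± 1.34, and Cbr2 0.11 ± 1.31 and 1.05 ± 1.04 with 15 and with 12 libraries. These positive values depend on single libraries of both groups. Without silica 1, the low silica library, 2 of the 8 members were positive with the other 14 libraries (median -0.38, against 0.06 with all 15), with Scgb1a1 at -0.12 and Cbr2 at -0.40. Without silica 7, 6 were positive (median 0.87). Without silica_DMSO 5, the library with the fewest counts in long genes, 0 were positive (median -2.14). That omission keeps 1 lung library and 2 with thymus RNA in the group, and with it Scgb1a1 was -2.24, Scgb3a1 -2.75, Scgb3a2 -2.33 and Cbr2 -2.07. On the log2(TPM + 1) scale with 15 libraries Scgb1a1 was -2.01. With 12 libraries the groups of all 8 members overlapped by TPM, where 3.42% of all genes did not.

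Silica_DMSO against DMSO asks what silica did in mice that also had DMSO. No member was called, and Scgb3a1, Gsto1, Aldh1a1 and Cyp2f2 had the largest fitted differences, all negative. With all 15 libraries 0 of 8 members and 0 of 17879 genes (0%) were called, with 305 genes at an unadjusted p under 0.05, and with 12 libraries 0 of 8 and 0 of 17630 (0%), with 335. Scgb3a1 averaged 592 ± 1105 normalised CPM in silica_DMSO and 2510 ± 3901 in DMSO (SD, n = 4 each), a log2 fold change of -2.08 ± 1.73 (SE, edgeR adjusted p = 0.998). Gsto1 was -1.23 ± 1.03, Aldh1a1 -1.23 ± 1.18 and Cyp2f2 -1.20 ± 1.18, and with 12 libraries the 4 were -1.51 ± 1.56, -0.74 ± 0.93, -0.63 ± 0.69 and -0.60 ± 0.81. By TPM in the lung libraries, the groups of 2 of 8 members did not overlap, with Cbr2 at 5904 and 6690 TPM in silica_DMSO and 7702 ± 898 TPM in DMSO (SD, n = 3), and Gsto1 at 139 and 147 TPM in silica_DMSO and 268 ± 145 TPM in DMSO. The same was true of 3.32% of all genes. Without DMSO 4 the 14-library fold change was 0.00183 for Scgb3a1 and 0.20 for Gsto1.

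The interaction, which asks whether the DMSO difference was another one with silica than without, was negative for all 8 members with 15 libraries and called for none. It was -2.75 ± 2.46 for Scgb3a1, -1.998 ± 1.49 for Gsto1, -1.73 ± 1.71 for Cyp2f2, -1.54 ± 1.54 for Bpifa1 and -1.51 ± 1.71 for Aldh1a1 (SE, edgeR adjusted p = 1.00 each). With 12 libraries it was positive for Scgb1a1 at 0.52 ± 1.68, Scgb3a2 at 0.08 ± 1.76 and Cbr2 at 0.04 ± 1.37. The 4 comparisons share libraries, so that silica_DMSO enters 2 of them and control 2 of them, and their values are not independent.

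**Figure D4:**
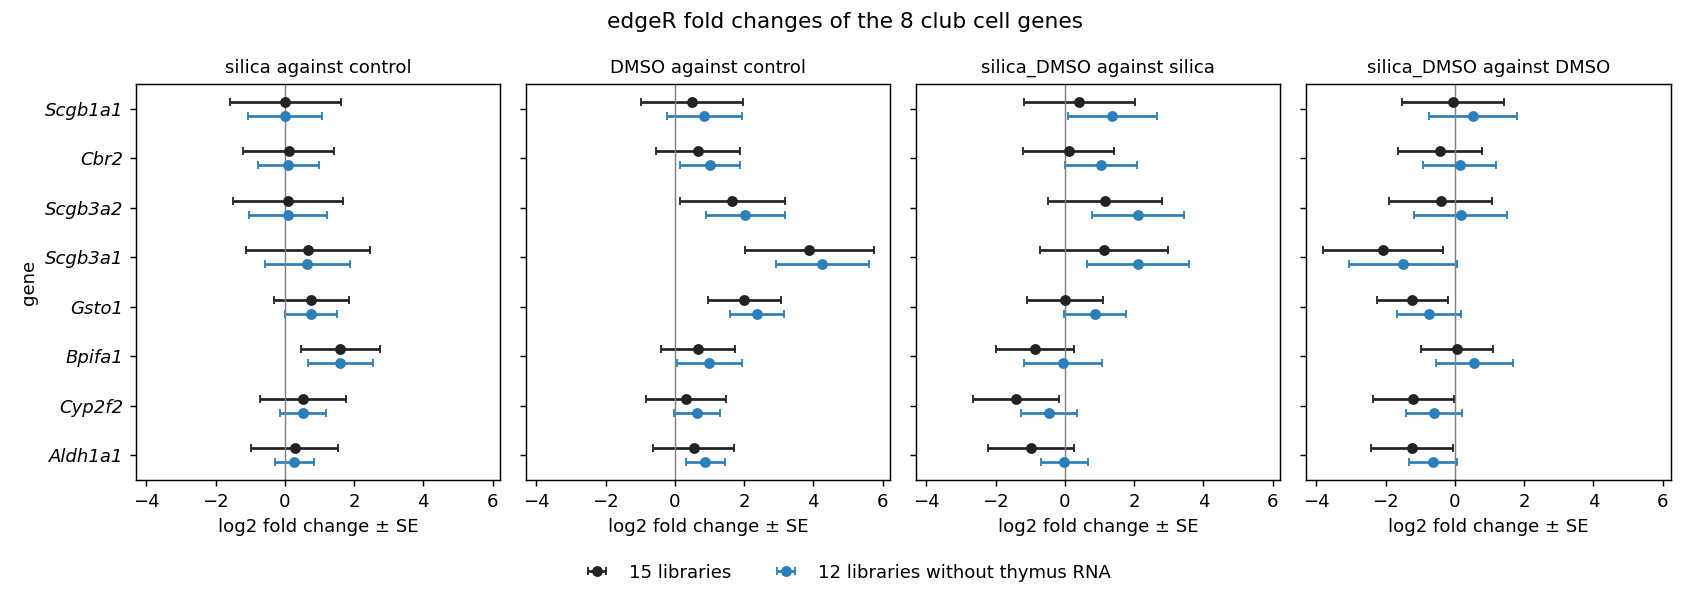
Log2 fold change with a standard error derived from the F statistic for each of the 8 genes in the 4 comparisons, from edgeR with all 15 libraries (black) and with the 12 libraries without thymus RNA (blue). In DMSO against control Scgb3a1 stands farthest from 0, at 3.88 and 4.26, and no value in any panel passed an adjusted p under 0.05.

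Other genes of airway secretory cells, some of them shared with other cell types, were taken from lists, and none of them was called in either fit. Of the 20 airway secretory products, with 12 libraries 18 were positive in silica against control (median log2 fold change 0.94, against -0.03 over all genes), and 20 were positive in DMSO against control (median 1.59, against -0.04). The most abundant was Lyz2, the lysozyme of macrophages and alveolar type 2 cells, at 14586 ± 6349 TPM in silica and 7720 ± 2512 TPM in control (SD, n = 3 and 4), a log2 fold change of 0.92 ± 0.57 (SE, edgeR adjusted p = 1.00). Wfdc2, a secreted protease-inhibitor-like protein, was at 1193 ± 564 TPM in silica and 1214 ± 689 TPM in control, and at 1817 ± 1120 TPM in DMSO. In silica_DMSO against silica 14 of the 20 were positive (median 0.54), and in silica_DMSO against DMSO 7 (median -0.39). With all 15 libraries these counts were 7 (median -0.40) and 2 (median -0.93). Over the lung libraries the 20 summed to 17063 to 26974 TPM in silica and 11587 to 15363 TPM in silica_DMSO. They summed to 12873 to 17858 TPM in DMSO and 8325 to 13966 TPM in control. The 3 silica libraries lay above the control range. Lyz2 alone was at 9768 to 21780 TPM in silica and 4135 to 9973 TPM in control. DMSO 6 lay within the control range and DMSO 1 and DMSO 4 above it. Silica 7, silica_DMSO 5, DMSO 1, DMSO 4 and control 1 have few counts in long genes, and the part of that in the list values was not tested.

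Of the 32 genes of xenobiotic and aldehyde metabolism, with 12 libraries 16 were positive in silica against control (median -0.02) and 23 in DMSO against control (median 0.35). In silica_DMSO against silica 22 were positive (median 0.21), and in silica_DMSO against DMSO 15 (median -0.09). In the 15-library fit the last 2 counts were 10 (median -0.63) and 3 (median -0.58), and DMSO against control had 18 (median 0.13). Aldh2, the mitochondrial aldehyde dehydrogenase, stood at 522 ± 125 TPM in silica, 395 ± 292 TPM in DMSO and 687 ± 205 TPM in control, and Ces1d, a carboxylesterase, at 531 ± 219, 436 ± 211 and 568 ± 113 TPM in silica, DMSO and control. Of the 20 regulators of airway secretory cells, with 12 libraries 12 were positive in silica against control (median 0.17) and 12 in DMSO against control (median 0.20), and 10 in each of the other comparisons (medians -0.03 in silica_DMSO against silica and 0.00 in silica_DMSO against DMSO). In the 15-library fit 2 were positive in silica_DMSO against silica (median -0.67), 6 in silica_DMSO against DMSO (median -0.53) and 9 in DMSO against control (median -0.10). Nkx2-1, the lung lineage factor, had 41.5 ± 15.5 TPM in silica, 24.5 ± 22.1 TPM in DMSO and 51.4 ± 9.61 TPM in control. Cebpa, a factor of airway and alveolar maturation, had 55.3 ± 5.22 TPM in silica, 36.8 ± 14.2 TPM in DMSO and 49.4 ± 13.6 TPM in control. The all-gene medians beside these lists were -0.03, -0.04, -0.02 and 0.05 in the order silica against control, DMSO against control, silica_DMSO against silica and silica_DMSO against DMSO.

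Neighbouring cell types give the setting. The 15 ciliated cell genes summed to 1197 to 1222 TPM in silica_DMSO, 596 to 1626 TPM in silica, 1090.5 to 2371 TPM in DMSO and 1004 to 1369 TPM in control over the lung libraries. Silica 1 was the lowest of the 12 in ciliated genes, as it was in Scgb1a1, Scgb3a2, Cbr2 and Bpifa1. Its alveolar type 2 markers summed to 62625 TPM, within the range of the controls, but 21780 TPM of that sum was Lyz2, which macrophages also make. Lyz2 was at 4135 to 9973 TPM in control. The type 2 marker Sftpc was at 30289 TPM in silica 1, below the 35501 to 46577 TPM of control. The 9 alveolar type 1 genes summed to 1518 to 2406 TPM in silica, 356 to 3337 TPM in DMSO and 3134 to 3868 TPM in control, and 0 of the 9 had a positive fold change in silica or in DMSO against control with 12 libraries (medians -0.74 and -0.79). The 8 endothelial genes gave 0 of 8 positive in both (medians -0.89 and -0.81). Ciliated genes gave 12 and 13 of 15 positive (medians 0.25 and 1.503), and alveolar macrophage genes 6 and 8 of 9 (medians 0.34 and 0.34). Basal cell genes summed to 114 to 482 TPM in the 3 libraries with thymus RNA and to no more than 3.65 TPM in the lung libraries, and neuroendocrine genes to no more than 14.7 TPM in the lung libraries. Alveolar type 2 genes gave 3 and 3 of 11 positive (medians -0.30 and -0.50), basal cell genes 6 and 5 of 6 tested, neuroendocrine genes 3 and 3 of 7, and thymocyte genes 2 and 2 of 3 tested. In DMSO 6 alveolar type 1 and endothelial genes summed to 3337 and 1369 TPM, within the control ranges (1218 to 2018 TPM for endothelial genes). DMSO 1 held 1180 and 557 TPM and DMSO 4 held 356 and 181 TPM, and both have few counts in long genes. The part of all these neighbouring cell types in the values of the 8 members was not tested.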

How the data were processed

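The files hold 2 tables of 57010 genes over 15 mouse lung libraries. The authors deposited expected counts, with fractional values (tolerance 1e-06) for 7.52% to 10.03% of the genes of a library, and TPM, which have one fixed sum in every library, each with a gene length in bases. Bowtie 0.12.2 and the mouse build mm8 are named in the submitters' processing notes, and which program made the expected counts is not stated there. The labels' extraction text speaks of retinas although the tissue field says lung. The 8 columns of authors' group means were not used.

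Counts were rounded, which moved a library's total by at most 53.9, and fitted with edgeR 4.0.16 in R 4.3.3 (robust quasi-likelihood test, TMM, 4 group means, genes kept by filterByExpr with a minimum count of 10 and total of 15), with Benjamini-Hochberg adjustment over all genes and calls at an adjusted p under 0.05. The fit was run with 15 libraries and with the 12 whose Rag1 was at or under 100 CPM. Fold changes are log2 of the edgeR fit. The edgeR test gives no standard error, so each SE is the size of the log2 fold change divided by the square root of its F statistic. The alternatives were DESeq2 1.42.0, limma 3.58.1 on log2(TPM + 1) and log2(TPM + 0.1) of the deposited TPM (genes with at least 1 TPM in 3 libraries), DESeq2 size factors, no filter on low counts, only the groups compared, an offset for gene length, the replicate number as a block, and leaving out each library. The fits were tested on simulated data. Correlations used 100000 permutations with SciPy 1.17.1, or all of them for 7 libraries.

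Every member is given in every library. From lists, the 2 genes of highest mean TPM are named where none was called, and likeness was measured over genes with a mean of at least 5 TPM. The members and lists were chosen with earlier results of these data known. Sequences came from RefSeq (GRCm38.p6), and no coordinate was carried between builds.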

Additional observations from a re-analysis of the deposited data

Results flagged for a closer look

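Over 27 groups of 4 libraries in which the highest or lowest value was set against the rest, 3 had a value that stood apart (gap over range above Dixon's critical value for 4 values). The chance rate of about 1 in 20 holds for independent, normally distributed values. These 27 share libraries and hold genes that vary together, so the 3 cannot be set against that rate. In silica_DMSO, library 2 had 2062 TPM of Cyp2f2, the naphthalene-activating cytochrome, against 7.49 to 301 TPM in the other 3 (ratio 0.857), 2 of which hold thymus RNA and the third of which has the fewest counts in long genes. In control, library 1 had 472 TPM of Cyp2f2, against 1886 to 2001 TPM in the other 3 (ratio 0.925). The same library had 4901 TPM of the secretoglobin Scgb3a2, against 2506 to 2718 TPM in the other 3 controls (ratio 0.911). Control 1 is the one control with few counts in genes over 3000 bases, at 24.2% against 35.5% to 44.9% in the others, and the part of that in both values was not tested.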

How the results depend on the processing

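No member was called under any setting run: of 1032 alternative values of the 40 fold changes reported, 0 passed an adjusted p under 0.05, the smallest adjusted p was 0.232, and 124 turned their sign, while 15 fold changes kept their direction throughout. The cause of these changes was not tested. Genes called over the whole table numbered 45, 63, 69 and 1 by DESeq2 in silica against control, DMSO against control, silica_DMSO against silica and silica_DMSO against DMSO, and 10 in the interaction, where edgeR called 0. In silica against control the count was 41 when only those groups were fitted, 11 with the length offset and 12 libraries, and 2 by edgeR or by limma-trend with 12 libraries. The limma-trend with 15 libraries called 1 gene in silica_DMSO against silica, 1 in silica_DMSO against DMSO and 1 in the interaction. As a share of TPM the 8 members averaged 14.3% in silica_DMSO, 24.5% in silica, 24.1% in DMSO and 26.7% in control, against 5.53%, 7.59%, 8.57% and 7.52% of counts. On the log2(TPM + 1) scale with 12 libraries the median of all genes lay at -0.54 in DMSO against control and at -0.56 in silica_DMSO against silica.

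Leaving out the 3 libraries with thymus RNA gave the opposite sign for Scgb1a1 0.53, Scgb3a2 0.17 and Cbr2 0.14 in silica_DMSO against DMSO, then Scgb1a1 0.52, Scgb3a2 0.0809 and Cbr2 0.0366 in the interaction. No filter on low counts gave the opposite sign for Gsto1 -0.057 in silica_DMSO against silica. An offset for gene length with all 15 libraries gave the opposite sign for Scgb1a1 -0.37, Scgb3a2 -0.0506 and Cbr2 -0.0929 in silica against control, then Scgb1a1 -0.63 in DMSO against control, then Scgb1a1 -0.55, Scgb3a1 -0.0585, Cbr2 -0.41 and Gsto1 -0.43 in silica_DMSO against silica, then Bpifa1 -0.12 in silica_DMSO against DMSO, then Scgb1a1 0.084 in the interaction. The same offset with 12 libraries gave the opposite sign for Scgb1a1 -0.36, Scgb3a2 -0.0394 and Cbr2 -0.0952 in silica against control, then Scgb1a1 -0.28 in DMSO against control, then Aldh1a1 0.0124 in silica_DMSO against silica, then Scgb1a1 0.22 in silica_DMSO against DMSO, then Scgb1a1 0.58 and Cbr2 0.0324 in the interaction. The limma-trend fit of log2(TPM + 1) with 15 libraries gave the opposite sign for Scgb1a1 -0.48, Scgb3a2 -0.26, Cyp2f2 -0.0564, Aldh1a1 -0.0795 and Cbr2 -0.45 in silica against control, then Scgb1a1 -0.42, Cyp2f2 -0.43, Aldh1a1 -0.38 and Cbr2 -0.43 in DMSO against control, then Scgb1a1 -2.01, Scgb3a1 -2.46, Scgb3a2 -1.28, Cbr2 -1.44 and Gsto1 -1.06 in silica_DMSO against silica, then Bpifa1 -0.36 in silica_DMSO against DMSO. With a pseudocount of 0.1 the values were Scgb1a1 -0.48, Scgb3a2 -0.26, Cyp2f2 -0.0565, Aldh1a1 -0.0796 and Cbr2 -0.45 in silica against control, then Scgb1a1 -0.42, Cyp2f2 -0.43, Aldh1a1 -0.38 and Cbr2 -0.43 in DMSO against control, then Scgb1a1 -2.01, Scgb3a1 -2.48, Scgb3a2 -1.28, Cbr2 -1.44 and Gsto1 -1.07 in silica_DMSO against silica, then Bpifa1 -0.37 in silica_DMSO against DMSO. The limma-trend fit of log2(TPM + 1) with 12 libraries, chosen after the data were seen, gave the opposite sign for Scgb1a1 -0.48, Scgb3a2 -0.26, Cyp2f2 -0.0564, Aldh1a1 -0.0795 and Cbr2 -0.45 in silica against control, then Cyp2f2 -0.0655 in DMSO against control, then Bpifa1 0.11 and Gsto1 -0.23 in silica_DMSO against silica, then Scgb1a1 0.36 and Cbr2 0.16 in the interaction.

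The edgeR fit with the replicate number as a block (replicate block) called 0 genes in each comparison and gave the opposite sign for Scgb1a1 -0.28, Cyp2f2 -0.11, Aldh1a1 -0.20 and Cbr2 -0.15 in silica against control, then Scgb1a1 -2.44, Scgb3a1 -3.03, Scgb3a2 -2.15, Cbr2 -2.01 and Gsto1 -1.63 in silica_DMSO against silica, then Bpifa1 -1.92 in silica_DMSO against DMSO. Same-numbered libraries of different groups had correlations of their deviations between -0.487 and 0.266 with all 15 libraries. Those libraries also differ in thymus RNA and in long-gene share, so these values cannot settle whether the numbers mark pairs. The main fits did not treat the numbers as pairs.

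Leaving out 1 library at a time gave these ranges where a sign turned. Aldh1a1 -0.31 to 0.73, Cbr2 -0.85 to 0.61, Cyp2f2 -0.30 to 1.03, Scgb1a1 -1.15 to 0.77 and Scgb3a2 -1.14 to 0.99 in silica against control. Aldh1a1 -0.000223 to 0.90, Cbr2 -0.19 to 1.05 and Scgb1a1 -0.34 to 1.25 in DMSO against control. Bpifa1 -2.22 to 0.0891, Cbr2 -2.07 to 1.07, Gsto1 -1.74 to 0.67, Scgb1a1 -2.24 to 1.58, Scgb3a1 -2.75 to 1.59 and Scgb3a2 -2.33 to 2.39 in silica_DMSO against silica. Bpifa1 -1.28 to 0.45, Cbr2 -2.62 to 0.42, Gsto1 -2.98 to 0.20, Scgb1a1 -2.73 to 0.78, Scgb3a1 -5.97 to 0.00183 and Scgb3a2 -3.90 to 0.93 in silica_DMSO against DMSO. Cbr2 -2.73 to 0.41, Scgb1a1 -2.74 to 1.08 and Scgb3a2 -3.99 to 0.84 in the interaction.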
